A study of Mus musculus with 7 samples.

Results

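Insig1, Hmgcs1, Sqle, Srebf2, Abca1, Abcg1, Nr1h3 and Cyp7b1 are 8 genes of sterol synthesis, export and oxysterol metabolism, out of 32285 genes in the count files. They were taken by symbol and are described here in immune cells from glioma-bearing mouse brains. The set was chosen by measured values of these libraries, since Cyp7b1 and Insig1 were lower in dendritic cells of mice given both treatments. For that reason the values of all 8 genes in the treatment groups' dendritic cells are given as a description, with no test between treatments. Tests of dendritic cells against other cell types use all pools together.

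The cells were living (DRAQ7-) CD45+ leukocytes, sorted 21 days after implantation from the tumour-bearing left hemisphere of female WT mice aged 8 to 9 weeks. Every mouse carried GL261, a mouse glioma line. The combination mice (PT2385/ICB) received PT2385, a HIF-2α inhibitor, at 10 mg/kg from day 7, together with ICB, the antibodies aPD-1 and aTIM-3. The PT2385 mice received the inhibitor alone, the ICB mice received the antibodies alone, and the last group was untreated. The treatment text describes vehicle and isotype controls but not which of them the untreated mice had, and it gives a drug course of 21 days although harvest was on day 21. Each library is a pool of 5000 cells from each of 2 mice, called pool 1 or pool 2 here. There were 2 combination, 2 PT2385 and 2 ICB pools and 1 untreated pool, so that 4 pools with PT2385 were set against 3 without. The mice of a pool cannot be separated, and any value of the untreated group rests on a single pool.

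Cells make cholesterol from acetyl units in a chain of enzymes that includes HMG-CoA synthase (Hmgcs1) and squalene epoxidase (Sqle). When membranes are poor in sterol, SREBP-2, the product of Srebf2, moves to the nucleus and turns these genes on, and INSIG-1 holds the same factor back in the endoplasmic reticulum when sterol is plentiful. When sterol is in excess, oxysterols activate the nuclear receptor LXRα (Nr1h3), which raises the exporters Abca1 and Abcg1. CYP7B1 hydroxylates oxysterols, a class of molecule that includes ligands of the chemotactic receptor GPR183.

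Promoters were available in RefSeq (build GRCm38.p6) for 5 of the 8 genes. Sqle, Abcg1 and Cyp7b1 had no entry. The windows of Insig1, Hmgcs1 and Srebf2 are shown because these synthesis-side genes had their lowest macrophage levels in the same pools, and that of Abca1 because it stands for the export side. They lie at chr5:28071162-28071461 (plus strand) for Insig1, chr13:119690101-119690400 (plus strand) for Hmgcs1, chr15:82147019-82147318 (plus strand) for Srebf2 and chr4:53159846-53160145 (minus strand) for Abca1. Each covers 250 bases before to 50 bases after the gene's start. Capitals mark matches, on either strand, to the SRE core TCACCCCA, the E-box CACGTG, the CCAAT box CCAAT and a DR4 pattern, GGTTA and GGTCA with 5 bases between them, letters that were chosen with these promoters in view.
Insig1: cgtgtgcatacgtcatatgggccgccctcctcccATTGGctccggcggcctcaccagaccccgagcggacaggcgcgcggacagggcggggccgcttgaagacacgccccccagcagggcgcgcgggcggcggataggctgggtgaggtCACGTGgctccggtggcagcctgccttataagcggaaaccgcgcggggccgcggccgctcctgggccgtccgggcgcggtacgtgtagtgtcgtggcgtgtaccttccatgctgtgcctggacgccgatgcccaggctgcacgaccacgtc
Hmgcs1: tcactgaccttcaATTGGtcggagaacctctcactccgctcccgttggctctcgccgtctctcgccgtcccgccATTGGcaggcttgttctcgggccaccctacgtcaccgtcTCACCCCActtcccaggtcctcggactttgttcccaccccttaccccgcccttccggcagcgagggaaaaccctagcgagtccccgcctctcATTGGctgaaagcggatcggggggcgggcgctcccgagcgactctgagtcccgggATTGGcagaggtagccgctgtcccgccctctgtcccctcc
Srebf2: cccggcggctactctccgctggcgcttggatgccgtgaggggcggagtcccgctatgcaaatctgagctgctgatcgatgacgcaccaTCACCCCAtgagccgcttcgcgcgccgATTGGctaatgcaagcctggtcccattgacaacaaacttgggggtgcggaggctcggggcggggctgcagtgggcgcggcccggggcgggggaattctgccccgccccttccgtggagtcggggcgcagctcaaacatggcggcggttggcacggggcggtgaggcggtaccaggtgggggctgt
Abca1: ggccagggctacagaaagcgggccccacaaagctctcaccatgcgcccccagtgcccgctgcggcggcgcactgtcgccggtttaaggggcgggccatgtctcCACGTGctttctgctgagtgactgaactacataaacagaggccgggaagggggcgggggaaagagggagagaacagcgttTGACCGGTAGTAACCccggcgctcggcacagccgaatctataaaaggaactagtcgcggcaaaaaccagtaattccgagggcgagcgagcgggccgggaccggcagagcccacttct
Hmgcs1 held the SRE core at base 114 and CCAAT at 4 places, and Srebf2 held the SRE core at base 89 and CCAAT once. Insig1 held the E-box at base 150 and CCAAT once. Abca1 held the E-box and the only DR4 match among these windows, at base 184. Among 32851 RefSeq promoters of the same length, 1.56% held the SRE core, 7.15% the E-box, 37.4% CCAAT and 0.0487% the DR4 pattern. Of the 15 listed sterol synthesis enzymes with a promoter entry, Hmgcs1 among them, 14 held CCAAT, 3 the E-box, 1 the SRE core and 0 the DR4 pattern. The 1 with the SRE core was Hmgcs1 itself. The list is counted by gene and the 32851 by single promoter, so the shares are not strictly alike. A match is a run of letters and says nothing of whether a factor was bound.

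The pools held 59839154 to 81960504 UMIs (unique molecular identifiers, 1 per captured transcript) in 4656 to 7446 kept cells, and 180 of 40853 distinct barcodes occurred in more than 1 pool. Cells were assigned to types by marker genes, and 26830 of 38468 (69.7%) met a gate. Counts were then summed per pool and type, and levels are CPM, the gene's UMIs per 1000000 UMIs of those cells. Dendritic cells here unite the gates for cDC1, cDC2 and migratory dendritic cells. A 3′ library gives no measure per transcript length, so levels are compared between types for 1 gene at a time and never between genes. In sums over cells, fewer cells with a transcript and less transcript per cell cannot be told apart. Transcripts of the choroid plexus, the epithelium that makes cerebrospinal fluid, were also found in gated immune cells. The 6 choroid markers summed to 234 and 279 CPM in macrophages of the combination pools, 11.5 and 3.06 CPM with PT2385, 50.4 and 99.3 CPM with ICB and 1.32 CPM in the untreated pool.

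Each of the 8 genes had its own distribution over the 7 types with at least 30 cells in every pool. Abca1, which loads cholesterol onto apolipoproteins, was a gene of the resident and recruited phagocytes. It averaged 392 ± 47.1 CPM in microglia and 359.8 ± 126 CPM in monocytes/macrophages, against 26.6 ± 9.62 CPM in NK cells and 4.35 ± 1.54 CPM in CD8 T cells (SD, n = 7 pools). Microglia and macrophages did not differ beyond their spread (exact paired permutation test, p = 0.453), and the step down to NK cells held in 7 of 7 pools. Nr1h3 was centred on macrophages, at 63.3 ± 15.1 CPM, with 10.5 ± 5.08 CPM in microglia and 2.07 ± 0.825 CPM in dendritic cells. Each of these steps also held in 7 of 7 pools. The lymphoid types had 0.805 to 1.66 CPM of Nr1h3, and their order was within the spread.

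Abcg1, which exports sterol to lipoprotein particles, was spread more evenly. It averaged 115 ± 11.0 CPM in microglia, 102 ± 21.7 CPM in macrophages, 95.4 ± 23.2 CPM in NK cells and 92.4 ± 32.9 CPM in dendritic cells, and these neighbours did not differ beyond their spread. The next step, to 53.9 ± 14.5 CPM in regulatory T cells, held in 7 of 7 pools. Within the dendritic gates, Abcg1 was high in migratory dendritic cells, at 71.8 to 192 CPM over the 7 pools, with 23.6 to 68.6 CPM in cDC1.

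The synthesis side was highest in dendritic cells, with 1 exception. Hmgcs1 averaged 74.9 ± 46.1 CPM there, with 32.5 ± 23.6 CPM in macrophages next in order. Sqle averaged 31.1 ± 20.8 CPM in dendritic cells, with 11.9 ± 7.86 CPM in regulatory T cells next. Both steps held in 7 of 7 pools. Srebf2 averaged 109 ± 27.7 CPM in dendritic cells and 75.2 ± 13.7 CPM in regulatory T cells, higher in 6 of 7 pools, and was lowest in microglia at 26.9 ± 6.03 CPM. Insig1 was the exception, with 55.4 ± 21.4 CPM in macrophages against 27.6 ± 16.7 CPM in regulatory T cells, higher in 7 of 7 pools. The other neighbours in the order of Insig1 differed by less than their spread, apart from the step from microglia (20.3 ± 4.26 CPM) to CD8 T cells (12.9 ± 7.71 CPM).

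Among the 7 types Cyp7b1 was highest in dendritic cells. It averaged 24.4 ± 20.3 CPM in dendritic cells and 0 to 0.401 CPM in microglia, macrophages, NK cells, CD8 T cells and regulatory T cells. Its 2.51 CPM in conventional CD4 T cells rested on 13 UMIs in a single cell of combination pool 2 and 1 UMI in PT2385 pool 2. The 152 plasmacytoid dendritic cells, too few to test, held 91.5 ± 156 CPM. The dendritic gates held 479 of the 1928 Cyp7b1 UMIs of all kept cells, and cells with at least 4 choroid plexus markers had 8.54 to 12.0 CPM in the 4 pools with 30 or more of them. Over the 8 genes, 48 pairs of neighbouring types were tested. The smallest p this exact paired permutation test can give is 0.0156. After Benjamini-Hochberg adjustment over the 48 pairs 0 passed, the steps that held in 7 of 7 pools having an adjusted p of 0.0682. A pair at that floor could pass only if more of the 48 had reached it, however large its own step. The test therefore cannot decide on single steps, and neighbours were ordered on the same pools.

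**Figure D1:**
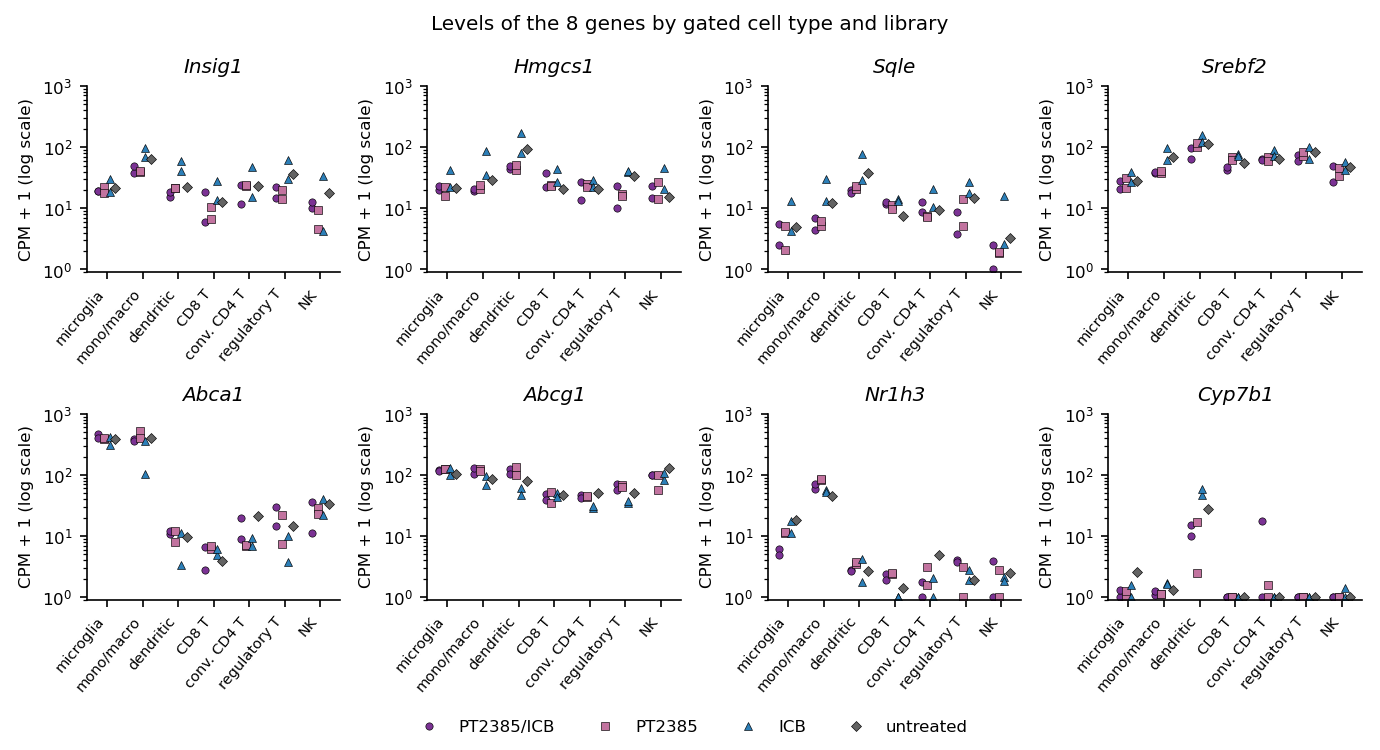
Levels of the 8 genes in 7 gated cell types, as CPM + 1 of summed counts on a log axis. Each point is 1 pool, with the combination, PT2385, ICB and untreated pools from left to right within a type; Abca1 sits near 400 CPM in microglia and macrophages, at 392 and 359.8 CPM on average, and Cyp7b1 is at or near 0 outside dendritic cells, apart from 1 combination pool in conventional CD4 T cells.

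In monocytes/macrophages the 4 genes of the synthesis side were lower in every pool with PT2385 than in every pool without it, as were 9.10% of all genes. Insig1 and Srebf2 passed the test, with log2 fold changes of −0.83 and −0.94. The exporters and Nr1h3 leaned the other way and did not pass. The gate held 14667 cells, 972 to 3617 in a pool. Genes were tested with edgeR's quasi-likelihood test on summed counts in a model with a PT2385 and an ICB term, and 113 of 15071 tested genes (0.750%) had a Benjamini-Hochberg adjusted p under 0.05, 26 higher and 87 lower.

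Insig1, which encodes the sterol-sensing brake on SREBP processing, had 37.2 and 47.5 CPM in the combination pools, 37.7 and 39.3 CPM in the PT2385 pools, 95.1 and 67.3 CPM in the ICB pools and 63.9 CPM in the untreated pool. The pools with PT2385 did not overlap those without. The log2 fold change was −0.83 ± 0.11 (SE; edgeR quasi-likelihood test, adjusted p = 0.0381). Srebf2, the gene of SREBP-2 itself, had 37.4 and 37.9 CPM with the combination, 37.2 and 39.5 CPM with PT2385, 97.5 and 61.5 CPM with ICB and 67.5 CPM in the untreated pool. These pools were nearly alike with PT2385 and did not overlap the rest. Its log2 fold change was −0.94 ± 0.12 (edgeR, adjusted p = 0.0381).

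Hmgcs1, which joins acetyl units into HMG-CoA, had 18.5 and 19.4 CPM with the combination, 20.0 and 23.3 CPM with PT2385, 84.6 and 34.0 CPM with ICB and 28.0 CPM untreated. ICB pool 1 stood far above the other pools. The log2 fold change was −1.10 ± 0.33 (edgeR, adjusted p = 0.133). Sqle, which makes the first oxygenated sterol precursor, had 3.48 and 5.91 CPM with the combination, 4.23 and 5.32 CPM with PT2385, 29.1 and 12.0 CPM with ICB and 11.3 CPM untreated. Again the groups did not overlap and ICB pool 1 was highest. Its log2 fold change was −1.71 ± 0.32 (edgeR, adjusted p = 0.0622).

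On the export side, Abcg1 had 102 and 127 CPM with the combination, 125 and 114 CPM with PT2385, 93.5 and 68.6 CPM with ICB and 84.2 CPM untreated. Nr1h3 had 58.0 and 69.1 CPM with the combination, 80.2 and 84.6 CPM with PT2385, 55.1 and 52.4 CPM with ICB and 44.0 CPM untreated. For both genes all pools with PT2385 lay above all pools without it. The log2 fold changes were 0.53 ± 0.11 for Abcg1 and 0.52 ± 0.13 for Nr1h3, with edgeR adjusted p of 0.0662 and 0.0967. Abca1 had 387 and 359.9 CPM with the combination, 518 and 404 CPM with PT2385, 102 and 355 CPM with ICB and 393 CPM untreated. These groups overlapped, ICB pool 1 was lowest, and the log2 fold change was 0.50 ± 0.39 (edgeR, adjusted p = 0.515). Cyp7b1 gave 1 to 19 UMIs a pool in macrophages, or 0.0697 to 0.738 CPM, and its log2 fold change of −1.61 ± 0.47 did not pass (edgeR, adjusted p = 0.126).

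**Figure D2:**
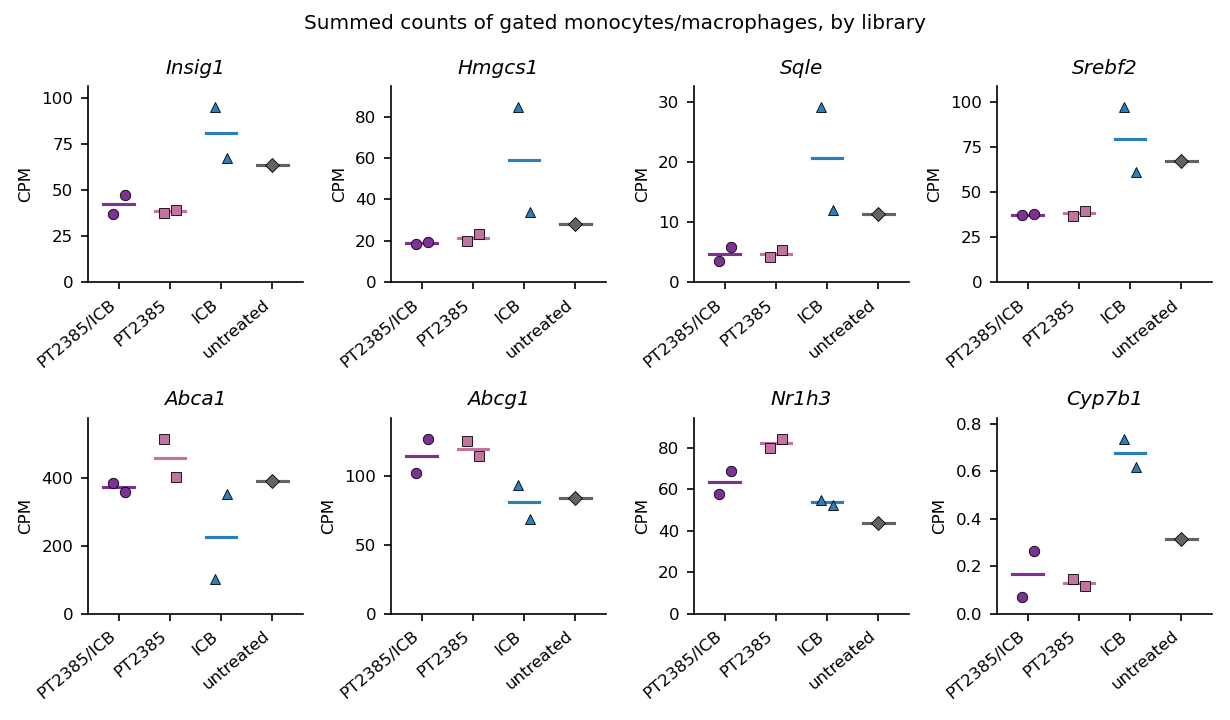
CPM of the 8 genes in gated monocytes/macrophages, 1 point per pool, with the group mean as a line and the axis from 0. Insig1, Hmgcs1, Sqle and Srebf2 are lower in the 4 pools with PT2385 than in the 3 without, Abcg1 and Nr1h3 are higher, and ICB pool 1 is the highest pool for the synthesis genes and the lowest for Abca1 (102 CPM).

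The other genes of the pathway were read from 4 lists with 51 genes beside the 8, of which 48 passed the filter on low counts in macrophages. Of the 18 other sterol synthesis enzymes, 18 had a log2 fold change below 0 with PT2385 and 2 passed the test, with a median of −0.75 against 0.002 for all genes tested. In 15 of the 18, all pools with PT2385 lay below all pools without, a pattern found in 9.10% of all genes. Among the 8 genes the same was true of 5. The other direction, wholly above, was found in 2 of the 8 and in 8.50% of all genes. Cyp51, the lanosterol demethylase, fell to 21.5 and 30.9 CPM with the combination and 20.7 and 26.5 CPM with PT2385, against 109 and 55.9 CPM with ICB and 55.1 CPM untreated (log2 fold change −1.44 ± 0.22, edgeR adjusted p = 0.0463). Mvd, which makes isopentenyl diphosphate, averaged 10.5 ± 0.757 CPM with PT2385 and 17.6 ± 3.52 CPM without (SD, n = 4 and 3; log2 fold change −0.68 ± 0.11, edgeR adjusted p = 0.0481). Fdps, which makes farnesyl diphosphate, had a log2 fold change of −1.68 ± 0.29 (edgeR, adjusted p = 0.0511) and is named, like Lipa, Mylip and Gpr183 below, after its value was seen.

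Among genes of SREBP control and sterol uptake, Lipa, the lysosomal cholesteryl ester hydrolase, had a log2 fold change of 0.69 ± 0.12 (edgeR, adjusted p = 0.0520), and Mylip, an LXR-induced ubiquitin ligase, 0.75 ± 0.15 (0.0666). None of the 9 further LXR and efflux genes and none of the 10 oxysterol genes passed with edgeR; the medians were 0.14 and 0.03. Gpr183, the oxysterol receptor, had the lowest fold change of the oxysterol list at −2.06 ± 0.35 (edgeR, adjusted p = 0.0511).

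**Figure D3:**
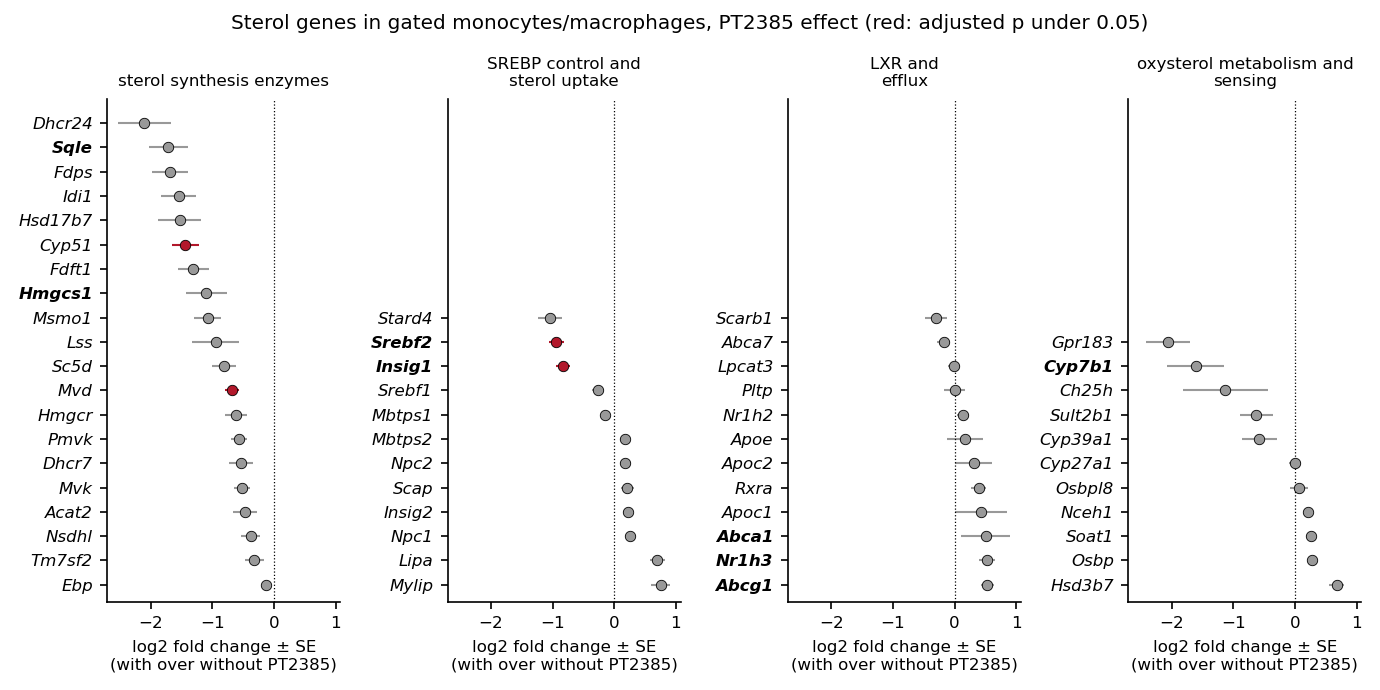
Log2 fold change with its standard error in monocytes/macrophages, pools with PT2385 over pools without, for tested genes of 4 lists. The 8 genes are in bold and red marks an edgeR adjusted p under 0.05; the synthesis enzymes all lie left of 0, while the LXR and efflux genes lie on both sides, from −0.30 for Scarb1 to 0.53 for Abcg1.

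Both member calls rested on few pools. Without the untreated pool the adjusted p of Insig1 and of Srebf2 was 0.310, without either PT2385 pool it was 0.131 to 0.177, and without either combination pool 0.0534 to 0.155, while the log2 fold changes stayed between −1.05 and −0.73 in these fits. Leaving out ICB pool 1 took Hmgcs1 (−0.63, adjusted p = 0.0372), Sqle (0.0172) and Abcg1 (0.0371) past the edgeR threshold, and leaving out ICB pool 2 took Sqle past it (0.0175).

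Other features of the macrophage gate also differed between pools, some of them with PT2385. Median UMIs per cell were 12080 to 13699.5 with PT2385 and 8761 to 10852 without. All 5 cDC2 markers had a lower mean with PT2385, and their summed level was 5.81 to 16.7 CPM with it and 16.1 to 116 CPM without. Of 7 migratory dendritic markers 6 had a lower mean, with sums of 6.17 to 7.59 CPM against 11.1 to 20.8 CPM. The 6 cycling markers had a lower mean too, but their sums overlapped, at 33.5 to 53.6 CPM against 30.8 to 229 CPM. The top value was ICB pool 1. That pool also had 835 CPM of 6 neutrophil markers against 129 to 197 CPM in the other pools. No marker of these 4 lists was at 0 in all pools. Their part in the result was not tested. Cells with a Nos2 UMI (inducible nitric oxide synthase) numbered 117 of 972 and 355 of 1034 in the combination pools, 1184 of 2366 and 1130 of 2654 in the PT2385 pools, 62 of 1449 and 136 of 2575 in the ICB pools, and 508 of 3617 in the untreated pool.

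The macrophages were therefore also fitted in 3 subsets, by Nos2 and by Arg1 (arginase), an addition made after the data were seen. Insig1 fell in each of them. Its log2 fold change was −0.74 ± 0.12 in Nos2+ cells (edgeR, adjusted p = 0.0353), −0.91 ± 0.14 in Arg1+ Nos2- cells (0.0449) and −0.77 ± 0.14 in cells with neither (0.0458). Srebf2 passed in the cells with neither (−0.89 ± 0.14, adjusted p = 0.0346) and not in Nos2+ cells (−0.72 ± 0.20, 0.147) or Arg1+ Nos2- cells (−1.03 ± 0.20, 0.0714). Sqle passed in Nos2+ cells at −1.68 ± 0.21 (edgeR, adjusted p = 0.0148), with 3.53 and 5.16 CPM with the combination, 3.53 and 4.31 CPM with PT2385, 17.6 and 16.5 CPM with ICB and 11.1 CPM untreated. Abcg1 passed in the cells with neither, at 0.56 ± 0.10 (edgeR, adjusted p = 0.0497). In these 3 fits 0.708%, 0.226% and 1.31% of all genes passed.

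Listed genes that fell in Nos2+ cells, with edgeR adjusted p from 0.00476 to 0.0241, were Gpr183 (−2.28 ± 0.34), Fdps (−1.53 ± 0.15), Cyp51 (−1.34 ± 0.14), Idi1 (−1.28 ± 0.17), which makes the isoprenoid unit dimethylallyl diphosphate, and, named after its value was seen, Msmo1 (−0.79 ± 0.12), a sterol C4 oxidase. In the cells with neither, Gpr183 (−1.71 ± 0.31) fell and Lipa (0.83 ± 0.12) rose, at edgeR adjusted p of 0.0491 and 0.0292. Whether the effect differs between the subsets was not tested.

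In microglia the 7 tested members showed 1 called difference, in Nr1h3. The gene had 5.18 and 3.84 CPM in the combination pools, 10.0 and 10.4 CPM in the PT2385 pools, 10.3 and 16.5 CPM in the ICB pools and 17.3 CPM in the untreated pool. The combination pools were the lowest of all, the PT2385 and ICB pools overlapped, and the untreated pool was highest. Against ICB alone the combination had a log2 fold change of −1.62 ± 0.29 (edgeR, 1 mean per group, adjusted p = 0.0407), in a fit where 240 of 13378 genes (1.79%) passed. Against the untreated pool it was −2.03 ± 0.37 (edgeR, adjusted p = 0.0827) and for PT2385 over both backgrounds −1.31 ± 0.27 (0.258; 0.0389 without the untreated pool).

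This result moved with monocyte and macrophage transcripts in the microglial gate. Of 12 such markers 11 had a lower mean in the combination pools than in the ICB pools, and they summed to 806 and 716 CPM with the combination, 1383 and 1331 CPM with PT2385, 1475 and 2366 CPM with ICB and 1759 CPM in the untreated pool. None of the 12 was at 0 in all pools, and Nr1h3 itself was 63.3 CPM in macrophages. The 6 choroid markers summed to 282 and 295 CPM in microglia with the combination, 4.54 and 12.6 CPM with PT2385, 66.0 and 99.9 CPM with ICB and 2.42 CPM untreated. The part of both in the fall was not tested. With Leiden clusters in place of gates the log2 fold change against ICB was −0.31 (edgeR, adjusted p = 0.701), and with 1 more marker asked for it was −1.10 (0.306). Leaving out ICB pool 2, either PT2385 pool or either combination pool raised the adjusted p to 0.0897 to 0.153.

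**Figure D4:**
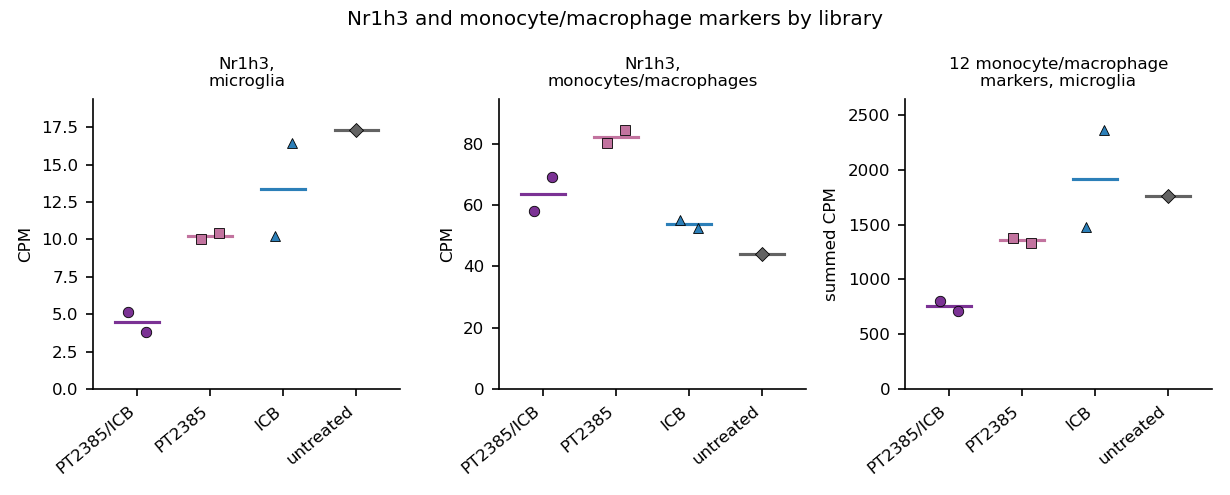
Nr1h3 in gated microglia and in gated monocytes/macrophages (CPM), and the summed CPM of 12 monocyte/macrophage markers in gated microglia, 1 point per pool with the group mean as a line. In microglia both quantities are lowest in the combination pools, at 5.18 and 3.84 CPM and at 806 and 716 CPM, while in macrophages Nr1h3 is higher in the 4 pools with PT2385 than in the 3 without.

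The synthesis genes leaned down with PT2385 in microglia too, without a call. All 18 other listed enzymes had a log2 fold change below 0, with a median of −0.39 against −0.002 for all genes, but 0 passed with edgeR, as did 0 of 13378 genes in that fit (1220 had an unadjusted p under 0.05). Sqle had 1.53 and 4.46 CPM with the combination, 4.21 and 1.07 CPM with PT2385, 12.3 and 3.26 CPM with ICB and 4.03 CPM untreated, and these groups overlapped. Insig1 lay at 16.9 to 21.4 CPM with PT2385 and 17.7 to 29.3 CPM without (edgeR log2 fold change −0.31 ± 0.18, adjusted p = 0.634). Of the lists, Ch25h and Apoc2 fell with the combination against ICB. Both were measured in the gate whose monocyte/macrophage and choroid transcripts differed between these pools, as given for Nr1h3. The gate held 1163 and 1806 cells with the combination and 787 and 634 cells with ICB. The part of these differences in the 2 falls was not tested. Ch25h, which makes 25-hydroxycholesterol, had 6 and 11 UMIs (0.575 and 0.692 CPM) with the combination and 93 and 34 UMIs (14.2 and 5.83 CPM) with ICB. The log2 fold change was −3.96 ± 0.65 (edgeR, adjusted p = 0.0313). Its log2 fold change was also below 0 for PT2385 over both backgrounds, at −2.83 ± 0.80 (edgeR, adjusted p = 0.394). Against the single untreated pool it was −2.55 ± 0.92. Apoc2, an apolipoprotein that activates lipoprotein lipase, had 9.68 and 8.11 CPM with the combination, 27.2 and 27.9 CPM with PT2385, 27.0 and 31.4 CPM with ICB and 27.8 CPM untreated. It fell against ICB (−1.76 ± 0.16, edgeR adjusted p = 0.00432) and against the untreated pool (−1.73 ± 0.22, 0.0310), where 0.351% of genes passed. With Leiden clusters these calls were lost (edgeR adjusted p = 0.338 for Ch25h, 0.612 and 0.584 for Apoc2). That of Ch25h was also lost with the strict gate (0.152), without ICB pool 1 (0.102) and without either combination pool (0.0661 and 0.137). The Apoc2 call against the untreated pool was also lost with the strict gate (0.323), without either PT2385 pool (0.0902 and 0.0968) and without either combination pool (0.0528 and 0.0553).

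In the lymphoid types 6 members passed the filter on low counts, Nr1h3 and Cyp7b1 being too low, and none was called for PT2385 with edgeR, in fits where 0% of all genes passed in CD8 T cells, 0.104% in conventional CD4 T cells, 0.0353% in regulatory T cells and 1.16% in NK cells. At an unadjusted edgeR p under 0.05 there were 4 members in regulatory T cells, 2 in NK cells and 0 in the others, and DESeq2 called 0. Over all genes the edgeR counts were 482 of 8494 in regulatory T cells and 964 of 9423 in NK cells. They were 752 of 10242 in CD8 T cells and 824 of 10542 in conventional CD4 T cells. Regulatory T cells had 4 members with separate groups. Insig1 had 21.6 and 13.9 CPM with the combination, 13.4 and 19.0 CPM with PT2385, 61.0 and 29.3 CPM with ICB and 35.1 CPM untreated, with 5 to 67 UMIs a pool. Insig1, Hmgcs1 and Sqle lay wholly lower with PT2385 and Abcg1 wholly higher, patterns found in 2.82% and 3.05% of genes. The log2 fold changes were −1.27 ± 0.31, −1.27 ± 0.30, −1.22 ± 0.50 and 0.64 ± 0.21, with edgeR adjusted p of 0.373, 0.373, 0.789 and 0.571. Of the 18 other listed synthesis enzymes, 11 were tested in regulatory T cells. All 11 had a log2 fold change below 0 with PT2385, with a median of −0.72 against 0.006 for all genes. With edgeR 0 passed, and 6 of the 11 lay wholly lower with PT2385. Apoe, the apolipoprotein that carries exported sterol, fell with the combination in these cells, to 186 and 166 CPM against 517 CPM in the untreated pool, while the PT2385 pools had 183 and 233 CPM and the ICB pools 126 and 227 CPM (log2 fold change −1.58 ± 0.27, edgeR adjusted p = 0.0243). The 12 monocyte/macrophage markers, of which 1 was at 0 in all pools, summed to 593 and 876 CPM in regulatory T cells with the combination and 1157 CPM untreated, and their part was not tested. The untreated pool stood above all 6 treated pools. That pool was also the highest for Apoe in CD8 T cells (300 CPM), conventional CD4 T cells (399 CPM) and NK cells (423 CPM). It was not the highest in macrophages, microglia or dendritic cells. Apoe averaged 17741 CPM in macrophages. The Apoe call was lost with DESeq2 (0.0603), with clusters (0.523) and without either PT2385 or either combination pool (0.0711 to 0.1196), and 0.0824% of genes passed in that fit.

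In CD8 T cells and conventional CD4 T cells the pools with and without PT2385 overlapped for each of the 6 tested members. Srebf2 in CD8 T cells, for instance, had 41.2 and 46.9 CPM with the combination, 68.5 and 59.7 CPM with PT2385, 75.3 and 70.1 CPM with ICB and 53.4 CPM untreated. The combination pools were lowest. Against ICB its log2 fold change was −0.76 ± 0.19 (edgeR, adjusted p = 0.214). In NK cells Sqle was wholly lower with PT2385, at 0 to 1.49 CPM against 1.64 to 14.8 CPM, but on 0 to 1 UMI a pool with the inhibitor (log2 fold change −2.51 ± 0.96, edgeR adjusted p = 0.284), where 5.80% of genes were wholly lower. Abcg1 in NK cells ran 98.0, 96.9, 99.2 and 55.4 CPM over the 4 pools with PT2385 and 81.1, 106 and 131 CPM over the 3 without, so these overlapped.

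For the ICB term, which sets the 4 pools with ICB against the 3 without, no member passed the test. Pools with and without PT2385 are on both sides of it. Over 6 types 39 member tests were made in each comparison, among 67150 tests of all genes. Of all gene tests, 5461 had an unadjusted edgeR p under 0.05 for the ICB term and 7268 for the PT2385 term. There were 7423 for the combination against ICB, 5985 for the combination against the untreated pool and 4705 for the interaction. For DESeq2 the counts over all genes are not given here. With edgeR the ICB term called 0 of 39 (1 at an unadjusted p under 0.05, and 0 with DESeq2), where 0.0343% of all gene tests in these types passed. In macrophages, where 0 of 15071 genes passed for ICB, the log2 fold changes ran from −0.50 ± 0.39 for Abca1 to 0.73 ± 0.49 for Cyp7b1, and that of Insig1 was 0.19 ± 0.12. The combination against the untreated pool gave 0 of 39 (6 unadjusted, 2 with DESeq2) against 0.119% of all gene tests, and the interaction of PT2385 and ICB 0 of 39 (6 unadjusted, 0 with DESeq2) against 0.00596%. The combination against ICB gave the 1 call in microglia (19 unadjusted, 5 with DESeq2) against 0.411% of all gene tests, and PT2385 the 2 calls in macrophages (14 unadjusted, 6 with DESeq2) against 0.351%. The smallest interaction p among macrophage members was that of Nr1h3, whose log2 difference of −0.59 ± 0.17 had an edgeR adjusted p of 0.992. Comparisons with the untreated pool assume that it varies as the other pools do.

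Dendritic cells, on which the set was chosen, numbered 82 to 273 a pool, 1265 in all. Migratory cells made up 65.9% and 62.2% of them with the combination, 65.0% and 56.2% with PT2385, 58.3% and 47.7% with ICB and 66.3% in the untreated pool. Insig1 had 16 and 21 UMIs (14.4 and 17.7 CPM) with the combination, 40 and 53 UMIs (20.2 and 20.8 CPM) with PT2385, 215 and 109 UMIs (57.9 and 39.7 CPM) with ICB and 65 UMIs (21.7 CPM) in the untreated pool. The ICB pools stood apart, while the combination and PT2385 pools were close to the untreated one. The exact 95% Poisson interval of the untreated value was 16.7 to 27.6 CPM and covers counting error only. On the log2(CPM + 1) scale the combination minus untreated was −0.42. Within cDC1 Insig1 had 15.4 and 28.2 CPM with the combination, 26.4 and 23.9 CPM with PT2385, 82.1 and 63.1 CPM with ICB and 25.3 CPM untreated, on 5 to 122 UMIs.

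Hmgcs1 and Sqle were lower with PT2385 in dendritic cells as well. Hmgcs1 had 42.4 and 48.1 CPM with the combination, 41.3 and 50.1 CPM with PT2385, 169 and 80.1 CPM with ICB and 93.3 CPM untreated. Sqle had 18.9 and 16.9 CPM with the combination, 19.6 and 22.3 CPM with PT2385, 75.9 and 28.0 CPM with ICB and 36.3 CPM untreated. For both genes all pools with PT2385 lay below all pools without, as did 2.69% of all genes in dendritic cells. Srebf2 overlapped, at 63.1 to 117 CPM with PT2385 and 113 to 155 CPM without. Fdps, a listed gene chosen after its values were seen, averaged 70.5 ± 32.5 CPM with PT2385 and 194 ± 80.4 CPM without.

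On the export side Abcg1 was higher in all pools with PT2385 in dendritic cells, as were 4.27% of all genes, at 125 and 102 CPM with the combination, 136 and 98.3 CPM with PT2385, 59.2 and 46.2 CPM with ICB and 80.0 CPM untreated. Most of these transcripts were in migratory cells, where Abcg1 had 182, 158, 192 and 178 CPM over the 4 pools with PT2385 and 84.3, 71.8 and 108 CPM over the 3 without. Abca1 stayed at 2.42 to 11.0 CPM in all pools and Nr1h3 at 0.807 to 3.28 CPM, with 2 to 9 UMIs a pool.

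Cyp7b1 in dendritic cells had 10 and 17 UMIs (9.02 and 14.3 CPM) with the combination, 3 and 41 UMIs (1.51 and 16.1 CPM) with PT2385, 170 and 157 UMIs (45.7 and 57.2 CPM) with ICB and 81 UMIs (27.0 CPM) in the untreated pool. All 4 pools with PT2385 were below all 3 without, the pattern of 2.69% of genes; the set was chosen on these values, so nothing is read from this. The UMIs sat in few cells. Of 1265 dendritic cells, 58 held any Cyp7b1 UMI, and 24 cells with at least 5 held 420 of the 479 UMIs. In the untreated pool 71 of 81 UMIs came from 2 such cells, 1 of them with 50. Without those cells the level was 4.56 and 4.27 CPM with the combination, 1.51 and 3.96 CPM with PT2385, 3.36 and 5.26 CPM with ICB and 3.35 CPM untreated. The groups then overlapped, and the combination minus untreated on the log2(CPM + 1) scale was 0.31, against −1.18 with them.

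Counted over all kept cells of any type, 75 cells held at least 5 Cyp7b1 UMIs, and these held 1444 of 1928 (74.9%). There were 3 and 4 such cells in the combination pools, 4 and 4 in the PT2385 pools, 34 and 14 in the ICB pools and 12 in the untreated pool. Per 10000 kept cells this was 6.44 and 7.72 with the combination, 8.04 and 7.88 with PT2385, 60.7 and 25.3 with ICB and 16.1 untreated. The pools with PT2385 were alike and lay below the rest. However, 24 of the 75 cells were gated dendritic cells, on whose values the set was chosen, so nothing is read from this. Gated dendritic cells numbered 82 to 194 in the pools with PT2385 and 199 to 273 in those without. The part of these numbers was not tested. The cut at 5 UMIs was set after the data were seen, so this is a description. Of the 75 cells 40 met no gate, 14 met the cDC1 gate, 8 the cDC2 gate and 7 the gate for plasmacytoid dendritic cells. A UMI of Flt3, the growth-factor receptor of dendritic cells, was found in 51 of them (68.0%), of Clec9a in 30 (40%), of Cd209a in 30 (40%) and of Ccr9 in 24 (32.0%). In all kept cells these shares were 5.35%, 5.31%, 0.811% and 2.58%, and in NK cells, which should lack them, 0 to 0.392%. Siglech was found in 24 (32.0%, against 20.9% of all kept cells and 1.64% of NK cells), and Xcr1, the chemokine receptor of mature cDC1, in 1. These dendritic genes are among the markers that set the dendritic gates and limit the NK gate. Part of each share is therefore fixed by the gating, and shares in the 40 ungated cells alone are not given. Transcripts of other cells were found too. The macrophage gene Lyz2 was in 52 (69.3%, against 81.9% of all kept cells and 49.4% of NK cells), the choroid gene Ttr in 41 (54.7%, against 37.3% and 26.0%), the microglial gene P2ry12 in 18 (24.0%, against 30.6% and 1.96%) and the T-cell gene Cd3e in 9 (12.0%, against 15.8% and 0.940%). Gpr183, the oxysterol receptor, was in 54 (72.0%, against 33.8% and 19.0%). The 75 cells had a median of 17300 UMIs, against 9400 for all kept cells and 5670 for NK cells.

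**Figure D5:**
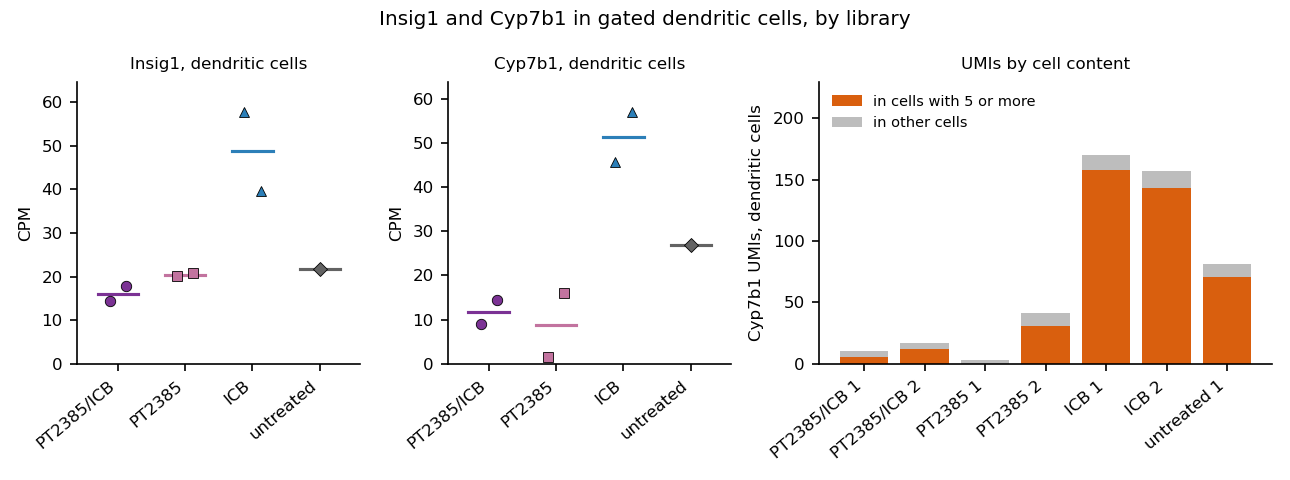
Insig1 and Cyp7b1 in gated dendritic cells as CPM, 1 point per pool with the group mean as a line, and the Cyp7b1 UMIs of each pool split by whether the cell held at least 5. The ICB pools are highest for both genes, and 420 of 479 Cyp7b1 UMIs lie in cells with 5 or more.

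Likeness of pattern was measured as the Spearman correlation of CPM over 49 sums (7 types in 7 pools, which share pools and depth) among 6800 genes with a mean of at least 20 CPM, and is given without a test. The genes most like Hmgcs1 were Fdps (0.81), Idi1 (0.81) and Cyp51 (0.75), and those most like Sqle were Cyp51 (0.89), Idi1 (0.86) and Srebf2 (0.81). These are steps or regulators of the same pathway. Srebf2 was most like Alcam (0.85), Ramp3 (0.83) and Trerf1 (0.83), and Insig1 most like Slfn5 (0.76), Pgam1 (0.75) and Oasl2 (0.75). Abca1 followed Fcgr3 (0.84), Jun (0.83) and Rhob (0.83), and Abcg1 followed Lpin2 (0.83), Pkig (0.83) and Tnpo1 (0.81). Nr1h3 was most like Slc31a2 (0.82), Cd68 (0.82), a lysosomal protein of macrophages, and Hk3 (0.82). Cyp7b1 was most like Xcr1 (0.82), Arhgap28 (0.81) and Adgrg6 (0.80), although Xcr1 was seen in only 1 of its 75 richest cells.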

How the data were processed

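Living CD45+ leukocytes from GL261 glioma-bearing mouse brains were profiled with 10x Genomics Chromium 3′ v3.1 chemistry in 7 libraries, each a pool of cells from 2 mice. The deposited files hold raw UMI counts per gene and cell barcode, made by the authors with Cell Ranger 7.0.0 per the file headers. The submitters' processing notes name Cell Ranger 2.2.0, Seurat 5 and the build GRCm39, with no role given for each. Ambient RNA removal is not given in the sources used here.

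Of 41033 barcodes, 40416 passed limits of 300 detected genes (minimum) and 10% mitochondrial counts (maximum). Scrublet scores (scanpy 1.11.5) were used to remove 1948 doublets, a share of 0.8% per 1000 barcodes, because the automatic threshold marked 11, which left 38468 cells. Types were gated on numbers of detected markers, with limits set after the data were seen; 26830 cells met a gate and 20 met more than 1. Counts were summed per pool and type and given as CPM of the summed cells. Types with at least 30 cells in every pool were tested in edgeR 4.0.16 (R 4.3.3; TMM, filterByExpr, quasi-likelihood test, Benjamini-Hochberg adjustment over all genes, threshold 0.05), with PT2385 and ICB terms (4 residual degrees of freedom) or 1 mean per group (3). SEs were derived from the F statistic as log2 fold change / √F. The fits were tested on simulated data.

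Alternatives were DESeq2 1.42.0, RLE scaling, no filter on low counts, stricter cells and gates, Leiden clusters, doublets kept, and each pool left out. Orders of types used an exact two-sided paired permutation test over 7 pools (scipy 1.17.1). Text names the 8 genes, at most the 4 largest rises and falls past the threshold per list comparison and type, and the 3 genes of highest correlation with each member; other names are marked as chosen after their values were seen. An item of the lists is not reported here. Members, lists and named genes were chosen with earlier results of these data known. The labels name pools of different mice, so p-values measure the spread between pools. PCR duplicates are collapsed by UMIs, and counting intervals cover counting error only. The strand setting of the counting is not given in the sources used here, so reads of overlapping genes may be shared.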

Additional observations from a re-analysis of the deposited data

Results flagged for a closer look

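Between pairs of cell types, 5 PT2385 effects ran in opposite directions: every pool with PT2385 lay above the mean of the pools without it in 1 type and below that mean in the other. The pairs were found by looking through the values, and an exact two-sided permutation of the PT2385 labels on the log2 ratio between the types, whose smallest possible p is 0.0286, was then adjusted over the 5. For Nr1h3 the log2 ratio of microglia over macrophages averaged −3.22 with PT2385 and −1.74 without, a difference of −1.48 (exact permutation p = 0.0286, adjusted 0.0714). For Abcg1 the ratio over NK cells differed by 0.96 in regulatory T cells (−0.41 with PT2385, −1.37 without; exact permutation p = 0.0286, adjusted 0.0714). It differed by 0.80 in macrophages (0.45 with, −0.35 without; 0.0857, adjusted 0.107), by 0.60 in conventional CD4 T cells (−0.96 with, −1.56 without; 0.0571, adjusted 0.0952) and by 0.43 in microglia (0.49 with, 0.06 without; 0.429, adjusted 0.429). After adjustment 0 of the 5 passed. The pairs were chosen on the same labels and values, and the adjustment leaves out the pairs searched and not kept. The p-values are therefore descriptive only. In NK cells the lowest value with PT2385 was PT2385 pool 2, at 55.4 CPM of Abcg1. No group has enough pools for a check of single outlying samples.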

How the results depend on the processing

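No paired analysis was possible because pool numbers were given in accession order and name no shared mouse, litter or day. The counts of calls over 6 types depended on the filter, the tool and the pools. With edgeR 2 of the 39 member tests passed for PT2385, 0 for ICB, 0 for the combination against untreated, 1 for the combination against ICB and 0 for the interaction. Without the filter on low counts these were 12, 1, 1, 7 and 1, and with DESeq2 6, 0, 2, 5 and 0, which left 12, 10, 11, 13 and 0 of the 39 without an adjusted p. Leaving out 1 pool gave 0 to 5, 0 to 0, 0 to 2, 0 to 5 and 0 to 2. The strict gate gave 3, 0, 0, 0 and 0, Leiden clusters 2, 0, 0, 0 and 0, and PT2385 alone against untreated 0, with fewer samples. For the listed genes the counts were 3, 0, 2, 2 and 0. They became 37, 11, 11, 27 and 13 without the filter, 20, 0, 4, 18 and 2 with DESeq2, 7, 0, 1, 2 and 1 with the strict gate and 1, 0, 0, 0 and 0 with clusters. Leaving out 1 pool gave 0 to 17, 0 to 3, 0 to 5, 1 to 33 and 0 to 2, PT2385 alone against untreated gave 0 and ICB alone against untreated gave 1. The cause of these shifts was not tested, and the shares of all genes called in these other fits are not given here.

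The adjusted p of Insig1 in macrophages ran from 8.64e-08 to 0.310 and that of Srebf2 from 6.96e-09 to 0.310, both lowest with DESeq2, and that of Nr1h3 in microglia, combination against ICB, from 3.86e-08 to 0.701. The calls of Cyp51 and Mvd were also lost without the untreated pool, either PT2385 pool or either combination pool, in each case with the log2 fold change below 0, and also with clusters (0.0543 and 0.0676). The dendritic Cyp7b1 difference between the combination and untreated, −1.18, was −0.63 with the strict gate, −1.82 with clusters, −1.48 to −0.87 with a pool left out, and 0.31 without cells of 5 or more UMIs. Insig1 in dendritic cells stayed between −0.56 and −0.28. Several values of Cyp7b1, of Nr1h3 outside macrophages and microglia, and of Sqle in NK cells rest on under 5 UMIs, and the untreated group has 1 pool.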
